A study of Homo sapiens with 9 samples.

Results

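The 9 transcripts described here encode surface proteins that immunophenotyping panels read on leukaemia cells: CD34, CD38, PROM1, CD33, ANPEP, NCAM1, CD14, CD4 and CD7. They were taken by gene symbol from 25680 symbols in the count tables of 9 samples of SKNO-1, a human acute myeloid leukaemia (AML) cell line with the AML1-ETO (RUNX1-RUNX1T1) fusion. Each symbol was represented by the RefSeq row with the highest total count. In the count tables, the EV group (3 samples) held control cells, and the SH2 and SH3 groups (3 samples each) held cells with 1 of 2 different shRNAs against ASXL2, a Polycomb-associated chromatin regulator. The study's results text describes a control shRNA, whereas the labels only say EV, so the kind of control is uncertain. All samples carried the fusion, were wild type for ASXL1 and ASXL2 according to the study, and grew with GM-CSF, so a single cell line with a single cytokine stood behind every value. The labels number the samples 1, 13 and 25 in every group without saying what the numbers mean, and their extraction text describes sorted bone marrow cells in place of a cell line.

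Diagnostic panels place leukaemia cells by lineage and maturity with antibodies against such proteins. CD34 and CD133 (encoded by PROM1) mark stem and progenitor cells, CD33 and CD13 (ANPEP) mark the myeloid lineage, and CD14 marks mature monocytes. CD4 is shared by helper T cells and the monocytic lineage, CD7 belongs to early T and NK cells, and CD56 (NCAM1) to NK cells. AML with the AML1-ETO fusion is known for blasts that often carry CD34 and CD56 on a myeloid background. Read counts measure mRNA from a whole culture, not surface protein, and fewer cells expressing a gene cannot be told apart from less RNA in each cell.

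The libraries held 27714431 to 35406063 counts with 1 row per symbol, and 3 counts corresponded to 0.0825 to 0.109 CPM, the unit of normalised read counts (counts scaled to the library size after TMM scaling). Such floors cover counting error only. The labelled cell type was checked against marker genes. MPO, the myeloid granule peroxidase, stood at 8254 CPM ± 1080 (SD, n = 3) in EV, RUNX1 at 301 CPM ± 6.26 and RUNX1T1 at 129 CPM ± 10.8. The T-cell genes CD3E and CD3G, the B-cell gene MS4A1 and the red-cell gene HBB had no count in any sample. Their lists also held expressed genes, such as CD8A (1.54 CPM in EV), CD79B (57.8 CPM) and TFRC (1557 CPM). At most 3 counts in every sample were found for 9 of 12 T and NK genes, 4 of 10 B-lineage genes and 7 of 10 erythroid and megakaryocytic genes. ASXL2 (NM_018263), the knockdown target, measured 67.9, 67.9 and 74.7 CPM in the EV samples numbered 1, 13 and 25. It measured 30.4, 36.2 and 36.2 CPM in SH2, and 26.9, 29.1 and 41.1 CPM in SH3, so no knockdown sample reached a control. For the mean of both shRNAs its log2 fold change was -1.08 (SE 0.13, adjusted p = 0.177), and with the label number as a block it was -1.09 (SE 0.08, adjusted p = 0.00098). The SH3 sample numbered 1 lay apart from the others on the first principal component (-58.6, against -24.9 to 25.0 in the other 8), and the member and list calls are also given without it.

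The promoters of the members were looked up in a RefSeq table on GRCh38.p14, which covers 250 bases before and 50 after each annotated start. It held 10 entries for 6 members, and none was matched for CD4, CD7 or NCAM1. The following 4 are shown to set 3 expressed members (CD33, CD38 and ANPEP, at its distal start) beside CD34, which was near the limit of detection. Capitals mark GAGGAA on either strand, the core motif of the myeloid factor PU.1.

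CD33: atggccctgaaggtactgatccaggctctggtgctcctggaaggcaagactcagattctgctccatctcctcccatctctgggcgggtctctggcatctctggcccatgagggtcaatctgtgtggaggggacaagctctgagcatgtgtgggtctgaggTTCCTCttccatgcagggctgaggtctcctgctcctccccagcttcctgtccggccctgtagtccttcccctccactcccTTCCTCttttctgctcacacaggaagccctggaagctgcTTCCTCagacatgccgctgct

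CD38: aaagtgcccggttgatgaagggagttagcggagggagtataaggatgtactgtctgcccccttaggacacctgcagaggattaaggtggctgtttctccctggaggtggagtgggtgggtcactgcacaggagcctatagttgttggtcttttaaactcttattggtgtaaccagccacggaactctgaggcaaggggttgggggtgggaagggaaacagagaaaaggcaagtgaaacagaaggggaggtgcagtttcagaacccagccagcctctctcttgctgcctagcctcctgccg

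ANPEP: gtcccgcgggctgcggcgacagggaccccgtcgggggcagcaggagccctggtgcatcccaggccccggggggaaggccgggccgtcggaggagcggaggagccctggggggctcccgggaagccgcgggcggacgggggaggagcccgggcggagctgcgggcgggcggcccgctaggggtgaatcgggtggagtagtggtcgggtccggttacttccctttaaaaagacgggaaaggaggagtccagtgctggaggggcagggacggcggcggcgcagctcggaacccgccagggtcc

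CD34: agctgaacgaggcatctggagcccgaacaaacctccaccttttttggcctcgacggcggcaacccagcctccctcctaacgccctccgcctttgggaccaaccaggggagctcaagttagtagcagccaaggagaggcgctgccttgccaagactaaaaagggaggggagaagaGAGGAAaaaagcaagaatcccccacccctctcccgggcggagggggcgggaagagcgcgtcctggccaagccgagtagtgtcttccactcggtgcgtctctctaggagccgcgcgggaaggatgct

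The CD33 sequence is chr19:51224830-51225129 on the plus strand, that of CD38 is chr4:15778078-15778377 on the plus strand, that of ANPEP is chr15:89814803-89815102 on the minus strand, and that of CD34 is chr1:207911076-207911375 on the minus strand. GAGGAA occurred 3 times in the CD33 window and once each in the CD34 and CD14 windows and in 2 of the 4 PROM1 windows (counted on both strands), and not in the CD38 window or either ANPEP window. It occurred in 27.9% of all 35116 promoters of the table. TGTGGT, the core RUNX motif, occurred in 0 of the 10 windows of these genes and in 13.1% of all promoters. The CD33 and CD38 windows held 3 and 4 CpG dinucleotides, the CD34 window 19 and the distal ANPEP window 32, against a median of 14. These are matches of letters within the window and say nothing on binding elsewhere.

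Of the 9 members, 5 were expressed in every sample and 4 were at or near the limit of detection. CD4, ANPEP, CD33, CD38 and CD7 exceeded 1 CPM in all 9 samples and passed the filter on low counts, as 14199 symbols did. CD34, CD14 and NCAM1 had at most 10, 3 and 4 counts in any sample. PROM1 had none.

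**Figure D1:**
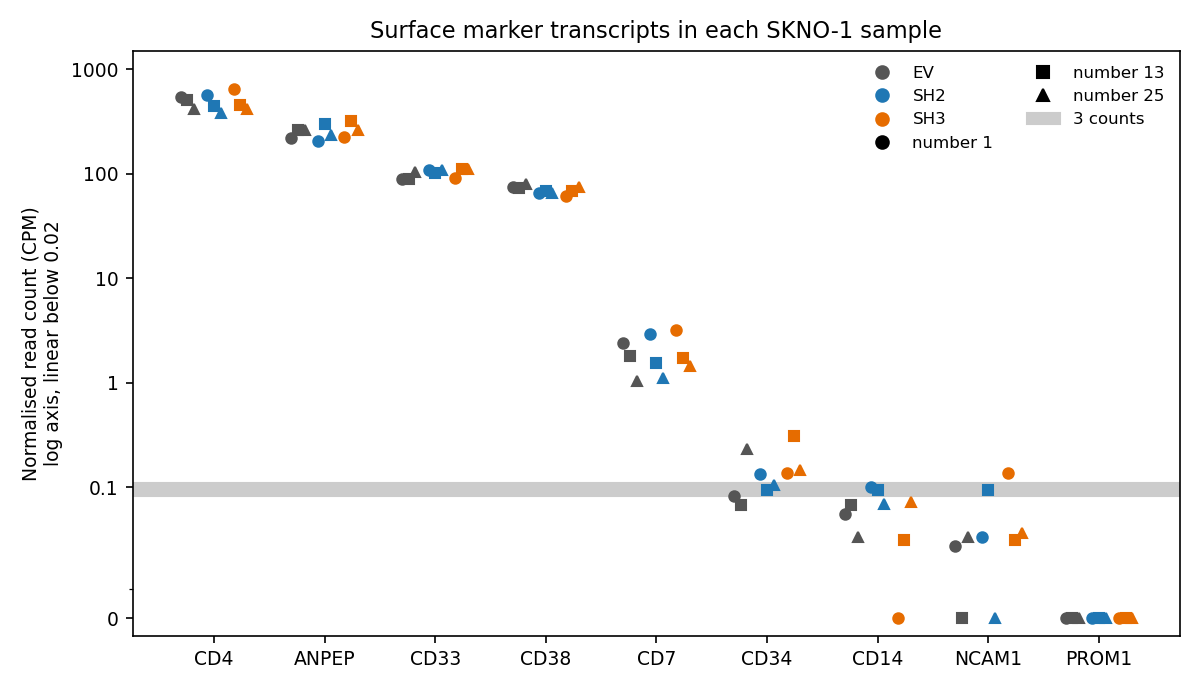
Normalised read count (CPM, vertical log axis, linear below 0.02) of each of the 9 members in each of the 9 samples, with the group by colour and the label number by shape. The grey band marks 3 counts (0.0825 to 0.109 CPM). CD4, ANPEP, CD33 and CD38 lie between 60.9 and 652 CPM, CD7 lies between 1.03 and 3.17 CPM, and CD34, CD14, NCAM1 and PROM1 lie near the band or at 0.

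CD33 (NM_001772, chr19:51728320-51747115, plus strand, GRCh37), a sialic-acid-binding inhibitory receptor of myeloid cells, was measured at 88.2, 89.5 and 104 CPM in the EV samples numbered 1, 13 and 25. It stood at 108, 102 and 107 CPM in SH2 and at 91.3, 112 and 112 CPM in SH3. The groups overlapped. The other 2 rows of CD33 held 67.3% to 70.3% and 88.6% to 91.1% of the counts of the row used, in every sample, since rows of 1 gene share reads.

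ANPEP (NM_001150, chr15:90328126-90358633, minus strand, GRCh37), a membrane aminopeptidase known as CD13, gave 221, 262 and 260 CPM in EV, 205, 295 and 232 CPM in SH2 and 227, 318 and 261 CPM in SH3. In each group the sample numbered 1 was the lowest and the sample numbered 13 the highest. Among the granulocytic and pan-myeloid genes beside these members, 10 of 12 passed the filter, and MPO and the neutrophil protease ELANE (363 CPM in EV) had the highest read counts. CEACAM8, a late granulocyte antigen, had no count in any sample.

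The progenitor markers split. CD34 (NM_001025109, chr1:208054317-208084747, minus strand, GRCh37), a sialomucin of progenitors, had 3, 2 and 7 counts in EV, 4, 3 and 3 counts in SH2 and 4, 10 and 4 counts in SH3, which is 0.068 to 0.309 CPM. PROM1 (chr4:15964699-16086001, minus strand, GRCh37) had 0 counts in all 7 of its rows and all 9 samples, which allows up to 0.109 CPM in the shallowest library.

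CD38 (NM_001775, chr4:15779898-15854855, plus strand, GRCh37), an NAD-consuming ectoenzyme of committed progenitors, was measured at 74.9, 73.5 and 79.0 CPM in EV. It measured 65.2, 67.5 and 64.6 CPM in SH2, below every control, and 60.9, 67.9 and 74.8 CPM in SH3, where the sample numbered 25 fell within the range of the controls. Other progenitor genes were expressed beside the near absence of CD34: 8 of 10 passed the filter, and the stem cell factor receptor gene KIT (356 CPM ± 74.0 in EV) and CD96 (153 CPM in EV) had the highest read counts. THY1 and DNTT had at most 3 counts in every sample. IL3RA and CD99, common in such panels, were not interpreted, because all 15 protein-coding symbols in the region shared by the sex chromosomes had at most 6 counts over the 9 samples.

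CD4 (NM_000616, chr12:6896024-6929965, plus strand, GRCh37), the co-receptor of helper T cells, which monocytes also carry, gave 547, 506 and 414 CPM in EV. It gave 570, 443 and 377 CPM in SH2 and 652, 453 and 419 CPM in SH3. Every sample numbered 1 exceeded every other sample. The 4 other rows of CD4 held 96.9% to 97.8% of the counts of the row used.

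CD14 (NM_001040021, chr5:140011313-140013285, minus strand, GRCh37), the lipopolysaccharide co-receptor of monocytes, had 2, 2 and 1 counts in EV, 3, 3 and 2 in SH2 and 0, 1 and 2 in SH3. So CD4 transcripts were abundant with CD14 at the floor. Of the 13 other monocytic genes 8 passed the filter. The lysozyme gene LYZ (56.2 CPM ± 4.92 in EV) and the lysosomal gene CD68 (19.4 CPM ± 1.87) had the highest read counts among them, while CD163, CD300E and CCR2 had at most 3 counts in every sample.

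CD7 (NM_006137, chr17:80272744-80275484, minus strand, GRCh37), an immunoglobulin-family protein of T, NK and early lymphoid cells, had 88, 53 and 31 counts in EV, which is 2.42, 1.80 and 1.03 CPM. SH2 had 2.91, 1.54 and 1.11 CPM and SH3 had 3.17, 1.73 and 1.46 CPM. As for CD4, the samples numbered 1 were the highest. NCAM1 (NM_000615, chr11:112831997-113149158, plus strand, GRCh37), the neural cell adhesion molecule, had 1, 0 and 1 counts in EV, 1, 3 and 0 in SH2 and 4, 1 and 1 in SH3. Its exons overlap genes on the opposite strand, among them NCAM1-AS1, and unstranded reads cannot separate them.

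The T and NK genes around CD7 and NCAM1 were mostly silent: 2 of 12 passed the filter, CD8A (1.54 CPM in EV) and NKG7 (0.651 CPM), and 9 of 12 had at most 3 counts in every sample. Among the B-lineage genes, CD79B stood at 57.8 CPM ± 3.29 in EV, and PAX5, the B-cell transcription factor, at 5.12 CPM ± 0.864. In the erythroid and megakaryocytic list 7 of 10 genes had at most 3 counts in every sample, while the transferrin receptor gene TFRC (1557 CPM in EV) and the platelet integrin gene ITGA2B (104 CPM) were expressed. All 6 leukocyte common genes passed the filter, and SPN (309 CPM in EV) and CD44 (298 CPM) had the highest read counts, not corrected for length.

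The members were ranked against each other only per length. The genes of the lists were ranked above by read counts without that correction, which changes some orders. In EV, CLEC12A (76.9 CPM per kb) stood above KIT (69.2) and CD96 (35.4), and CD44 (54.8) and CD53 (44.2) above SPN (42.6). Per kilobase of the main annotated transcript, EV levels were 160 CPM per kb ± 22.4 (SD, n = 3) for CD4, 67.6 ± 6.32 for ANPEP, 64.3 ± 6.09 for CD33, 13.5 ± 0.506 for CD38 and 1.36 ± 0.541 for CD7. CD4 exceeded 98.1% of the 21844 symbols with a length, CD33 94.7%, CD38 77.3% and CD7 52.9%. ANPEP and CD33, neighbours in this order, did not differ beyond their spread. The place of CD38 depended on the length used. Per kilobase of coding sequence it stood at 84.2 CPM per kb ± 3.16, beside 85.3 ± 7.98 for ANPEP and 86.1 ± 8.16 for CD33, so these 3 did not differ beyond their spread on that scale, and CD4 (356 ± 49.6) and CD7 (2.43 ± 0.965) kept the first and the fifth place. The tables do not give the length of the RefSeq rows themselves.

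**Figure D2:**
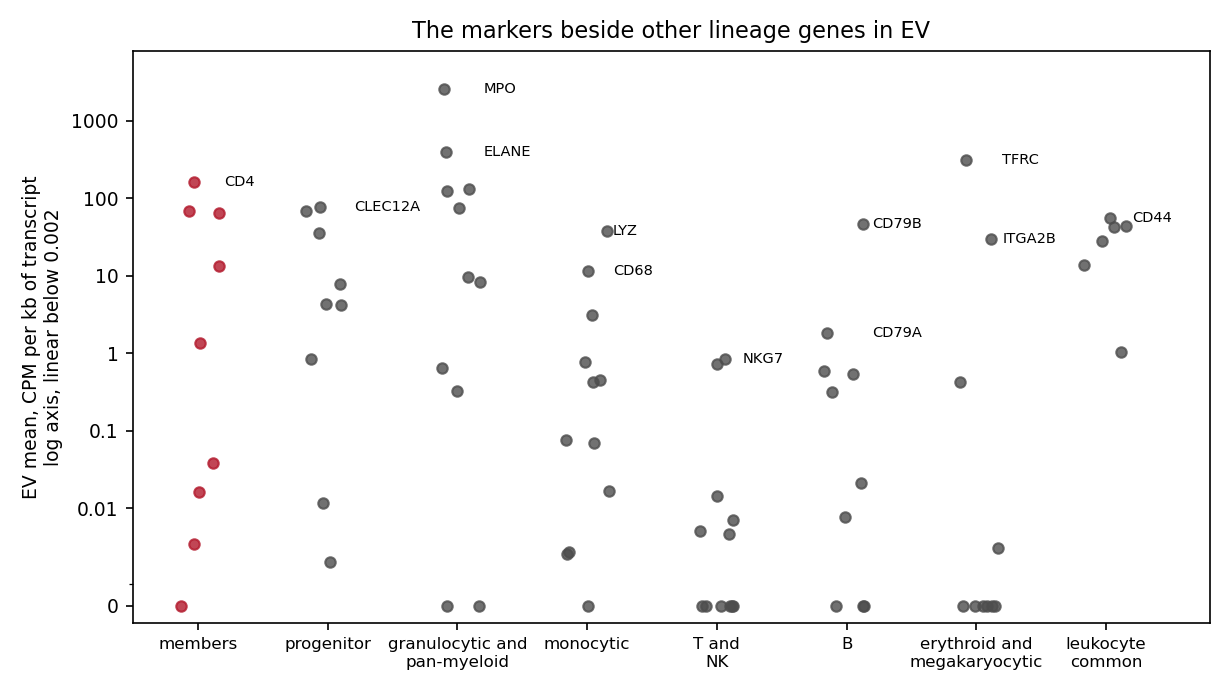
Mean level in the 3 EV samples (CPM per kb of the main transcript, vertical log axis, linear below 0.002) of the 9 members (red) and of the other genes with a length in 7 lineage lists (grey), 1 point per gene. GPR56, CD24 and FCGR1B, which had no matched length, and IL3RA and CD99 are not shown. CD4 at 160 CPM per kb is the highest of the members and lies below MPO (2566), ELANE (399) and TFRC (311), while most T and NK genes lie near 0.

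Knockdown and control were compared to ask whether the marker transcripts differed where ASXL2 mRNA was reduced, though not lost. No member passed the threshold (adjusted p under 0.05) in any of the 4 contrasts between groups. With edgeR and no block, 0 of 14199 genes passed in each contrast (0%), although 762 genes had an unadjusted p under 0.05 for SH2 against EV, 723 for SH3 against EV, 942 for the mean of both against EV and 293 for SH3 against SH2. DESeq2 called 25, 26, 56 and 11 genes, none of them a member. When edgeR took the label number as a block, it called 40 genes (0.282%) for SH2 against EV, 59 (0.416%) for SH3 against EV, 156 (1.1%) for the mean and 15 (0.106%) for SH3 against SH2, and DESeq2 with the block called 374, 474, 622 and 152. Again 0 of the 5 tested members were among them. DESeq2 with the block gave CD7 no adjusted p for SH2 against EV or SH3 against EV, so CD7 was not judged there. The blocked count for the mean ran from 2 to 1755 when 1 sample was left out, and it was 1755 without the SH3 sample numbered 1.

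CD38 came closest. For the mean of both shRNAs its log2 fold change was -0.18 (SE 0.08, 95% interval -0.36 to -0.00375, unadjusted p = 0.0462, adjusted p = 0.744), and with the block it was -0.18 (SE 0.06, unadjusted p = 0.0152, adjusted p = 0.148). CPM in SH2 was 87.0%, 91.9% and 81.8% of the EV sample of the same number, and in SH3 81.4%, 92.4% and 94.8%. All 6 knockdown samples were thus below their own control, which held for 11.6% of the 14199 genes tested. Both shRNA groups share the same 3 controls. CD38 was also the 1 member with all 3 SH2 samples below all 3 EV samples (7.8% of genes tested), and no member did so in SH3 (5.28%).

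CD33 moved the other way by a similar amount, without passing the test. Its log2 fold change for the mean was 0.17 (SE 0.09, 95% interval -0.05 to 0.38, adjusted p = 0.847), and 0.17 with the block (SE 0.07, adjusted p = 0.222). It was 0.09 under the block with a length and GC correction (adjusted p = 0.533) and 0.25 without the EV sample numbered 25 (adjusted p = 0.818). SH2 samples stood at 123%, 114% and 103% of the EV sample of the same number and SH3 samples at 103%, 125% and 107%. All 6 were above their own control, as in 11.6% of genes tested. Without the SH3 sample numbered 1, the blocked fit called CD38 for SH2 against EV (log2 fold change -0.21, adjusted p = 0.0391) and CD33 for the mean of both shRNAs (0.20, adjusted p = 0.0347), while it called 11.2% and 12.3% of all genes in these contrasts. The unblocked fit without that sample gave CD38 -0.21 (adjusted p = 0.52) for SH2 and CD33 0.21 (adjusted p = 0.403) for the mean.

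**Figure D3:**
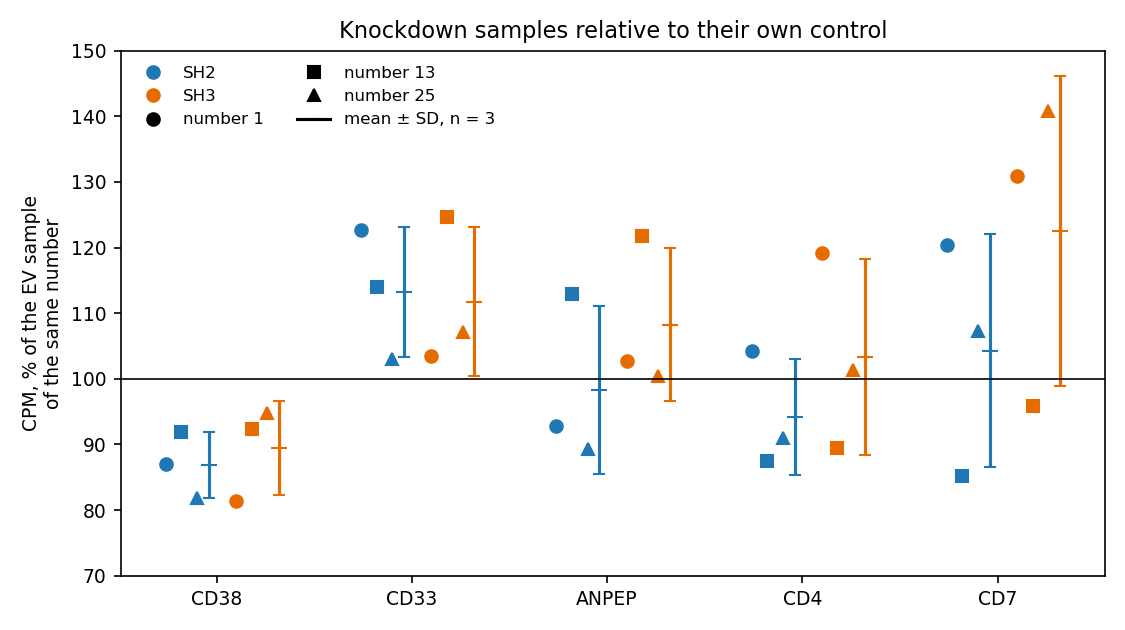
CPM of each knockdown sample as a percentage of the EV sample with the same label number (vertical axis, 100 = control) for the 5 expressed members, with SH2 in blue, SH3 in orange and bars for mean ± SD (n = 3). All 6 points of CD38 lie below 100 (81.4% to 94.8%) and all 6 of CD33 above it (103% to 125%), while ANPEP, CD4 and CD7 have points on both sides.

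ANPEP, CD4 and CD7 fell on both sides of their controls. ANPEP ranged from 89.2% to 113% of control in SH2 and from 100.4% to 122% in SH3, with a log2 fold change for the mean of 0.05 (SE 0.14, adjusted p = 0.986). CD4 ranged from 87.4% to 104% in SH2 and from 89.5% to 119% in SH3 (-0.01, SE 0.18, adjusted p = 0.997). CD7, with the fewest counts, ranged from 85.2% to 120% in SH2 and from 95.9% to 141% in SH3 (0.17, SE 0.39, adjusted p = 0.984). The widest interval of the 5 was that of CD7, -0.71 to 1.05 without and -0.21 to 0.53 with the block.

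The shRNAs were also compared with each other. The log2 difference SH3 against SH2 was 0.05 for CD38 (95% interval -0.16 to 0.25), -0.01 for CD33 (-0.26 to 0.23), 0.14 for ANPEP (-0.23 to 0.51), 0.13 for CD4 (-0.32 to 0.59) and 0.19 for CD7 (-0.82 to 1.20). No member passed the threshold (adjusted p = 0.998 for each), and the intervals leave room for differences of these sizes. When genes with few counts were kept in the fit, CD34, CD14 and NCAM1 were tested as well, and 0 of the 8 members with any count passed in the 4 contrasts. That fit called 0 of 19912 genes in each of these contrasts, so the absence of members is no trait of theirs. The counts of CD34, CD14 and NCAM1 were too few for a fold change to be read.

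**Figure D4:**
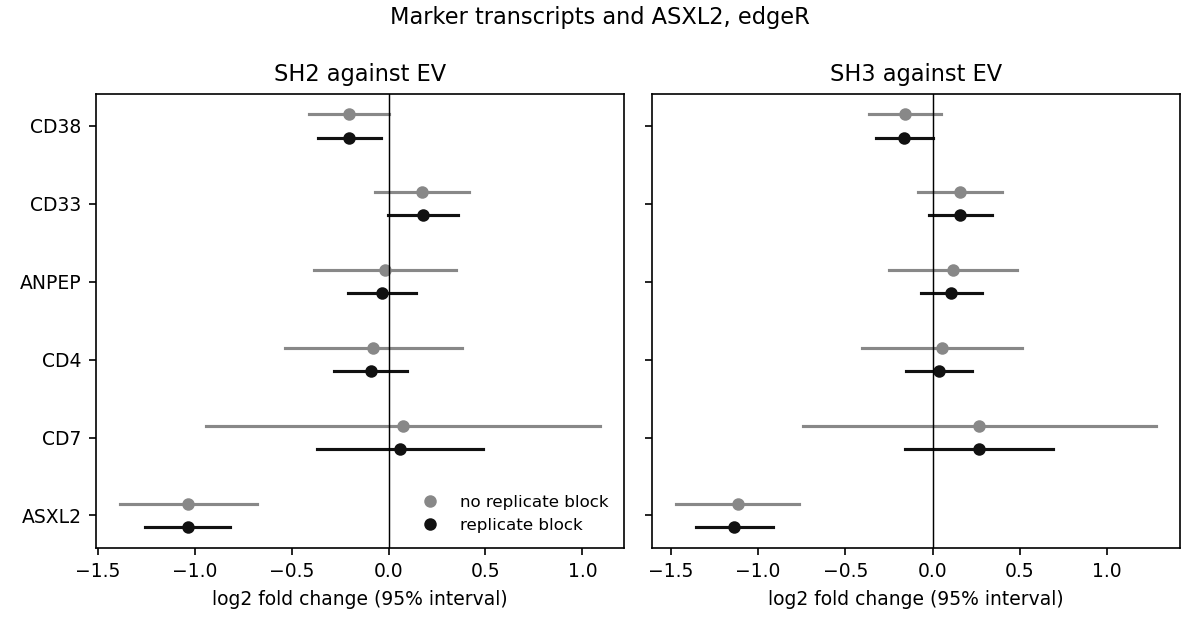
Log2 fold changes (horizontal axis) with 95% intervals for SH2 against EV (left) and SH3 against EV (right), in the edgeR fits without (grey) and with (black) the label number as a block. ASXL2 lies near -1 in both panels (-1.03 and -1.12 without the block), while the 5 members lie between -0.20 and 0.27.

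Of the other genes of the 7 lists, 42 were tested, and without the block none of them passed in the 4 contrasts between groups. With the block, CSF3R, the G-CSF receptor gene, was lower for the mean of both shRNAs (log2 fold change -0.43, SE 0.08, adjusted p = 0.0385), at 225 CPM ± 54.2 in EV, 166 ± 59.3 in SH2 and 169 ± 33.0 in SH3. CD68 was higher in SH3 (0.56, SE 0.10, adjusted p = 0.0483), and PAX5 was lower in SH3 (-1.11, SE 0.17, adjusted p = 0.0308) and for the mean (-0.79, adjusted p = 0.0412). The 8 progenitor genes had a median log2 fold change of -0.17 for the mean with the block and the 8 monocytic genes 0.26, beside 0.01 over all genes. Without the SH3 sample numbered 1 these medians were -0.21 and 0.07, beside 0.00 over all genes, and the blocked fit called 9 of the 42 genes for the mean (12.3% of all genes tested) in place of 2. CSF3R (-0.40, adjusted p = 0.00392) and PAX5 (-0.71, adjusted p = 0.00538) for the mean and, in SH3, CD68 (0.42, adjusted p = 0.0195) and PAX5 (-0.95, adjusted p = 0.00934) were among the calls of that fit. The unblocked fit without that sample called 0 of the 42. The summed level of the monocytic genes without CD4 and CD14 was 87.0 to 88.4 CPM in EV, 89.6 to 105 in SH2 and 97.5 to 122 in SH3, the highest being the SH3 sample numbered 1. Its part in the values of the members was not tested.

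The label numbers, in contrast, went with differences that passed the threshold for 3 members. In a fit with group and number as terms, the samples numbered 1 were compared with those numbered 13 and 25, and 6570 of 14199 genes (46.3%) passed the threshold. A share of 3 in 5 members is near that background. The p values of such fits, also for number 25 against number 13 below, measure the spread left after group and number. Samples that share a number were taken as paired, so each number may stand for a single unit. The p values do not measure the spread between such units. CD4 was higher in the samples numbered 1 (log2 difference 0.44, SE 0.07, adjusted p = 0.00131), with 547 to 652 CPM against 377 to 506 CPM. CD7 was higher (0.99, SE 0.16, adjusted p = 0.00117), with 2.42 to 3.17 CPM against 1.03 to 1.80 CPM. ANPEP was lower (-0.32, SE 0.07, adjusted p = 0.00469), with 205 to 227 CPM against 232 to 318 CPM.

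For these 3 genes the samples numbered 1 did not overlap the others. All 3 samples numbered 1 lay above all others in 14.4% of genes tested and below all others in 12.1%. CD38 (-0.09, SE 0.06, adjusted p = 0.275) and CD33 (-0.12, SE 0.07, adjusted p = 0.177) overlapped and did not pass. CD33 did pass without the SH2 sample numbered 1 (-0.21, adjusted p = 0.0463), in a fit that called 6095 genes. Without the SH3 sample numbered 1 the differences stood at -0.02 for CD38 (adjusted p = 0.799) and -0.04 for CD33 (adjusted p = 0.635). In that fit CD4 (0.37, adjusted p = 0.00127), CD7 (0.98, adjusted p = 0.0018) and ANPEP (-0.30, adjusted p = 0.00689) still passed, beside 33.7% of all genes.

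Number 25 was then set against number 13, where 833 genes (5.87%) and none of the 5 members passed. The samples numbered 13 exceeded those numbered 25 in all 3 groups for CD4, CD7 and ANPEP. How many of all genes tested show that order was not counted, so it is not read as particular to these members. The log2 differences were -0.21 for CD4 (SE 0.08, adjusted p = 0.159), -0.50 for CD7 (SE 0.20, adjusted p = 0.167) and -0.22 for ANPEP (SE 0.08, adjusted p = 0.13). Without the SH3 sample numbered 1, CD4 (-0.21, adjusted p = 0.038) and ANPEP (-0.21, adjusted p = 0.0448) passed, beside 19.2% of all genes.

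**Figure D5:**
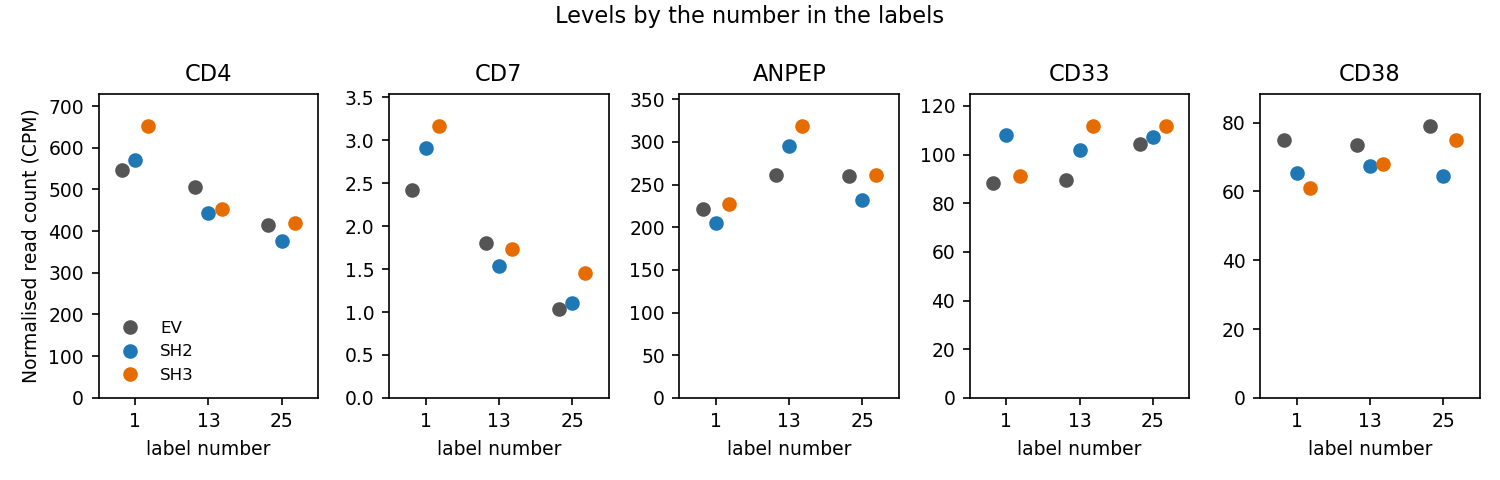
Normalised read count (CPM, vertical axes from 0, 1 panel per gene) of the 5 expressed members by the number in the labels (1, 13 or 25), with a point for each of the 3 groups. In the panels of CD4, CD7 and ANPEP the samples numbered 1 lie apart from the rest (547 to 652, 2.42 to 3.17 and 205 to 227 CPM), whereas in those of CD38 and CD33 they overlap them.

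Other lineage genes differed by number as well. Over all genes tested, 24.1% were called higher and 22.2% lower in the samples numbered 1, and for number 25 against number 13 2.77% were called higher and 3.1% lower. Apart from the members, all 8 tested progenitor genes were higher in the samples numbered 1, while CD38 of the same list was not called (log2 difference -0.09, adjusted p = 0.275). Among the 8 were KIT (0.36, SE 0.08, adjusted p = 0.0066), FLT3 (0.54, SE 0.09, adjusted p = 0.00138) and CD200 (1.69, SE 0.24, adjusted p = 0.000685). CD96, CLEC12A, GPR56, HLA-DRA and HLA-DRB1 made up the rest, at 0.23 to 1.16. Of the 8 monocytic genes 6 were higher: CD86 (1.35), ITGAX (1.16), CSF1R (1.00), FCGR1B (0.83), FCGR1A (0.73) and CD68 (0.44). The medians of these lists were 0.60 and 0.78, beside 0.01 over all genes. Without the SH3 sample numbered 1, all 8 progenitor genes were still called (median 0.54), while FCGR1A and FCGR1B were no longer called and 4 monocytic genes were (median 0.27).

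In the granulocytic list 5 of 10 genes were called, a share near the 46.3% of all genes. Of these 2 were higher (CSF3R at 0.61 and AZU1 at 0.37) and 3 were lower (CEACAM6 at -1.55, CD24 at -0.41 and ELANE at -0.27). The T and NK genes, which share CD7's lineage, had 0 of 2 called. CD22 (2.47) and CD79A (0.43) were higher and PAX5 (-0.50) was lower among 5 B-cell genes, also near that share. ITGA2B (0.45) was higher among 3 erythroid and megakaryocytic genes, and PTPRC (0.75), CD44 (0.35), CD48 (1.02) and SPN (0.22) among 6 leukocyte common genes. Without the SH3 sample numbered 1, ELANE, CD79A, PAX5 and ITGA2B were no longer called, while MPO (0.37) and CD79B (0.18) were called higher and CD8A (-0.68) and SDC1 (-0.87) lower. Between numbers 25 and 13, CD24 (0.84), ELANE (0.46) and PRTN3 (0.50) were higher in the samples numbered 25 and CD96 was lower (-0.26), and without the SH3 sample numbered 1 the calls over the lists were 4 higher and 9 lower. The summed monocytic level was 87.0 to 122 CPM in the samples numbered 1, 88.3 to 113 in those numbered 13 and 88.4 to 97.5 in those numbered 25, so it overlapped between numbers. This sum is weighted to LYZ (56.2 CPM in EV), which was not called by number, whereas 6 of the 8 tested monocytic genes were higher in the samples numbered 1. The part of the monocytic genes in the difference of CD4 was not tested.

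The genes whose log2 CPM followed each expressed member most closely over the 9 samples (Pearson's r across samples that share group and number) were ERN1 for CD38 (0.970), PRMT5 for CD33 (0.976), LOC553103 for ANPEP (0.959), EIF3L for CD4 (0.991) and ZBTB6 for CD7 (0.993). For CD4, CD7 and ANPEP the samples numbered 1 lay apart, so these values include that split. Each partner was the highest in a search of the 14199 genes tested. The highest of so many correlations over 9 samples can be large without any relation between the genes, and none was tested.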

How the data were processed

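Messenger RNA of SKNO-1 cells was sequenced by the authors from unstranded poly(A) libraries, per the study's methods in biological triplicate. The deposited values are raw read counts per RefSeq transcript (48104 rows per sample, hg19), not normalized by the authors. The submitters' processing notes name STAR, featureCounts and DESeq2 without their roles. Of 25680 symbols, 9509 had several rows that share reads, so the row with the highest total was used.

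Counts were tested with edgeR 4.0.16 in R 4.3.3 (quasi-likelihood F test, filterByExpr with a minimum count of 10 and minimum total of 15, TMM scaling, 1 coefficient per group, all 9 samples, 6 residual degrees of freedom). P values were adjusted by Benjamini-Hochberg within each contrast over the 14199 symbols tested, with a threshold of 0.05. SE is the size of the fold change over the square root of F. The labels repeat the numbers 1, 13 and 25 in each group. Deviations from group means correlated at 0.398 or more in all same-number pairs and at 0.306 or less in the others, so the numbers were taken to pair the samples and a fit with the number as a block was made (4 residual degrees of freedom). The pairing rests on this check and not on the labels, which do not say what the numbers stand for.

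Alternatives were DESeq2 1.42.0, its size factors, no filter, summed rows, a length and GC correction, and each sample left out. An exact test on 3 against 3 samples was not used. Total counts per sample, given in the report, set the precision. Members, gene lists and tests were chosen with earlier results of these data known. The text names all 9 members, ASXL2 and the genes of the lists that passed in any contrast over all 9 samples. It also names the 2 genes with the highest mean CPM per list and the gene most correlated with each expressed member. Some calls made without the SH3 sample numbered 1 are named as well. CEACAM8, THY1, DNTT, SDC1 and the genes of the lists at or near 0 were named after their values were seen. TRAC and TRBC2 were not analysed here. Loci are from a GENCODE annotation of GRCh37, and promoters from RefSeq on GRCh38.p14. Some genes of the lists are not reported here.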

Additional observations from a re-analysis of the deposited data

How the results depend on the processing

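Genes called for SH2 against EV, SH3 against EV, the mean of both against EV and SH3 against SH2 were 0 in each contrast without the block, also with DESeq2's size factors, no filter or summed rows. They were 25, 26, 56 and 11 with DESeq2, 40, 59, 156 and 15 with the replicate block, and 374, 474, 622 and 152 with DESeq2 and the block. The block with a length and GC correction gave 4, 12, 18 and 15, and the block on the same genes without the correction, added after seeing the data, gave 37, 96, 155 and 13. With 1 sample left out, with or without the block, the counts ran from 0 to 1604, 0 to 368, 0 to 1755 and 0 to 257. The high ends came from leaving out the SH3 sample numbered 1 or, for SH3 against SH2, the SH3 sample numbered 13, and without the block the counts were at most 2. For number 25 against number 13 the count ran from 50 (without the EV sample numbered 25) to 2750 (without the SH3 sample numbered 1), and it was 252 without the EV sample numbered 13 and 88 to 93 without the SH2 samples numbered 13 or 25 or the SH3 sample numbered 25. The cause was not tested.

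The log2 fold change of ASXL2 for the mean was -1.09 with the replicate block, -1.07 with DESeq2, -1.09 with DESeq2 and the block, -0.89 with the block and the length and GC correction, and -1.09 with the block on genes with a length, each past the threshold. It did not pass with DESeq2's size factors (adjusted p = 0.189), no filter (0.0517) or summed rows (0.273). It ran from -1.18 to -1.005 with 1 sample left out. Among the members, no call was lost in any alternative. Leaving out the SH3 sample numbered 1 added calls of CD38, CD33, CD4 and ANPEP, and leaving out the SH2 sample numbered 1 added one of CD33, as given in the report. The direction of small differences was not stable. ANPEP (0.017) and CD7 (-0.022) for SH2 against EV turned under the block with length and GC correction. With 1 sample left out, SH3 against SH2 ran from -0.028 to 0.12 for CD38, from -0.097 to 0.074 for CD33, from -0.087 to 0.31 for CD4 and from -0.21 to 0.68 for CD7. SH2 against EV ran from -0.18 to 0.092 for ANPEP, -0.26 to 0.038 for CD4 and -0.41 to 0.39 for CD7. SH3 against EV ran from -0.020 to 0.22 for ANPEP, -0.17 to 0.18 for CD4 and -0.15 to 0.58 for CD7. The mean against EV ran from -0.057 to 0.11 for ANPEP, -0.13 to 0.076 for CD4 and -0.10 to 0.48 for CD7. CD38 stayed below and CD33 above EV in every alternative run for each shRNA and their mean, but the sizes moved. CD38 in SH3 was -0.16 and -0.09 without the SH3 sample numbered 1. Under the block with length and GC correction CD33 fell from 0.17 to 0.11 in SH2, from 0.16 to 0.08 in SH3 and from 0.17 to 0.09 for the mean. CD33 in SH3 was 0.25 without the EV sample numbered 25, 0.24 without the SH3 sample numbered 1 and, with the block, 0.08 without the SH3 sample numbered 13, and in SH2 it was 0.09 with the block and without the SH2 sample numbered 1. The block changed no call of a member.

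With 5 members above 1 CPM in every sample, the split into expressed and near-absent members was the same under 3 other scalings or row choices. Depth limits CD34, CD14, NCAM1 and PROM1, where a few counts decide the value, and CD7, whose 31 to 93 counts give wide intervals. Group means moved by over 1 SD only when overlapping rows were summed (15 of 27 means).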
